A study of Mus musculus with 14 samples.

Results

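GW3965, a synthetic agonist of the liver X receptors (LXRs), was examined as the difference between 4 arrays of macrophages given a stimulus together with GW3965 and 4 arrays of macrophages given the stimulus alone. These are 8 of the 14 one-colour arrays of the study. They were chosen by their titles: GW3965 + LPS 1 and 2 and GW3965 + poly(I:C) 1 and 2, against LPS 1 and 2 and poly(I:C) 1 and 2. LPS is bacterial lipopolysaccharide, a ligand of the receptor TLR4, and poly(I:C) is a double-stranded RNA made by synthesis, which the receptor TLR3 recognises. All groups were peritoneal macrophages elicited with thioglycollate, an irritant broth, in female C57BL/6 mice aged 6 weeks. The other 6 arrays were 2 untreated arrays and 2 each of LPS and poly(I:C) with GW7845, an agonist of the nuclear receptor PPARγ. Every array with GW3965 also had a stimulus, so its change could be measured in stimulated cells only. The labels name no doses or times. The series text gives 2 biological replicates per condition; whether each came from 1 mouse or from pooled mice is not stated there.

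LXRα and LXRβ are nuclear receptors that bind oxysterols, the oxidised forms of cholesterol, and act on DNA as partners of the retinoid X receptor. Their target genes carry cholesterol out of the cell, remodel lipoproteins and make fatty acids. In macrophages, LXR agonists are also known for lowering the induction of inflammatory genes.

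Values are log2 intensities on a scale where the median probe of each array is 0, so +1 is a doubling. Where the values of a group are joined by "and", replicate 1 comes first; a range covers the 4 arrays of both stimuli. Arrays fell into set A and set B by the 10th percentile of their intensity, which was 0.137 to 0.271 in set A and 0.0549 to 0.0833 in set B. For all 8 arrays of the comparison, set A was replicate 1 and set B was replicate 2. The array set and the replicate number therefore cannot be told apart here. GW3965 + LPS 1 stood apart: 30 of its probes lay at least 4-fold below the other 5 stimulated arrays of its set, against 0 to 9 on the other 11 stimulated arrays. LPS 2 stood apart the other way, with 23 probes at least 4-fold above its set. Of 14 measured macrophage markers, 12 were above the array median on all 8 arrays. Lysozyme (Lyz2) was at 10.0 to 10.9 and cathepsin S (Ctss) at 10.2 to 11, while Fcgr1 and Gatm stayed below the array median.

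Of 9493 probes tested with limma, with stimulus and array set as blocks, 140 (1.47%) passed an adjusted p of 0.05. GW3965 was accompanied by higher values at 36 probes (0.379%) and lower values at 104 (1.1%). All 140 differed in the same direction in each of the 4 pairs of arrays that shared a stimulus and a set, against 8.7% of all probes that were higher and 11.2% that were lower in all 4 pairs. At 32 of the 36 higher probes, all 4 arrays with GW3965 lay above all 4 without it, as did 1.77% of all probes. At 63 of the 104 lower probes, all 4 lay below, as did 2.28% of all probes. The calls were made on these same arrays, so these shares describe the called probes and add no separate evidence. The median change was 1.38 among the higher and -1.21 among the lower probes, beside -0.04 over all probes tested. The excess of lower over higher calls depended on the setting. Without the array-set block 28 probes passed, all among the 140, and 15 were higher and 13 lower. Without the intensity trend 11 were higher and 3 lower, and with quantile normalization 35 and 64. Leaving out LPS 1 left 15 higher and 13 lower, LPS 2 left 16 and 26, GW3965 + LPS 1 left 18 and 24, poly(I:C) 1 left 20 and 38, and GW3965 + poly(I:C) 1 left 11 and 16. Leaving out any of the other 3 arrays left 122 to 201 calls. In each of these fits all 140 kept their direction.

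**Figure D1:**
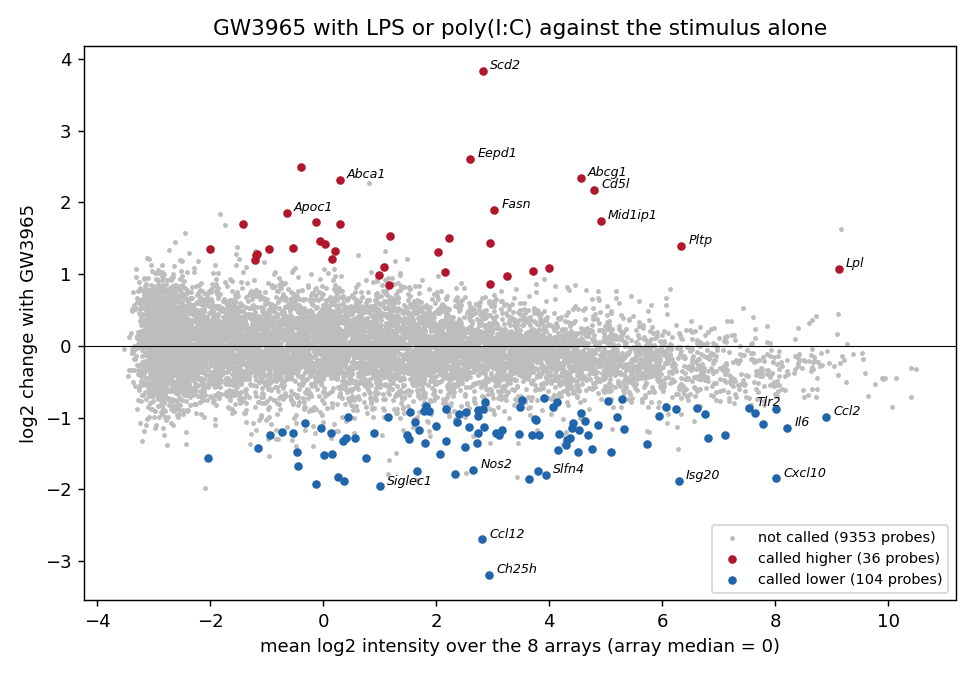
The log2 change with GW3965 (vertical axis) against the mean log2 intensity over the 8 arrays (horizontal axis, array median 0), 1 point per probe. The 36 probes called higher are red and the 104 called lower are blue; Scd2 is the highest, at 3.83, and Ch25h the lowest, at -3.19.

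In every one of the 8 fits with 1 array left out, 21 probes passed, 11 higher and 10 lower. The higher ones were Scd2, Eepd1, Abcg1, Abca1, Cd5l, Fasn, Mid1ip1, Abcc3, Ap5s1, Tmem86a and a probe with no gene symbol. The lower ones were Ch25h, Klra2, Isg20, Ccnd2, Slfn4, Nos2, Pla2g2d, Kdr, Vnn3 and Itpripl1. The rest of the 140 lost their call when at least 1 array was left out.

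Of 23 measured genes on a list of LXR targets, 14 rose and none fell, while 0.379% of all probes rose. Their median change was 1.40, beside -0.04 over all probes. Some of the list was taken with earlier results of these arrays known, so its count is not independent evidence. Without the array-set block 11 of the 23 rose, and without GW3965 + poly(I:C) 1, 8 rose. Without GW3965 + LPS 1, which stood apart, 13 rose, with a median of 1.22, and without LPS 2, 11 rose, with a median of 1.23.

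Both cholesterol exporters of macrophages rose. Abca1, the transporter that loads cholesterol onto apolipoprotein A-I, was at -1.57 and -0.26 with LPS and at 1.12 and 1.29 with LPS and GW3965. With poly(I:C) it was at -1.05 and -0.57 alone and at 1.98 and 1.41 with GW3965. All 4 arrays with the agonist were above all 4 without it, and Abca1 rose 4.97-fold (2.31 ± 0.28 SE, adjusted p 0.00232). Abcg1, which passes cholesterol on to high-density lipoprotein, was at 3.12 and 3.35 with LPS and 3.47 and 3.61 with poly(I:C), and at 5.68 and 5.35 (LPS) and 6.00 and 5.89 (poly(I:C)) when GW3965 was added. Its rise of 2.34 ± 0.16 (adjusted p 1.7e-05) was 2.28 under LPS and 2.40 under poly(I:C). The intestinal and hepatic exporters Abcg5 and Abcg8 did not pass, with changes of -0.09 (interval -0.88 to 0.71) and 0.01 (-0.46 to 0.48). Abcg5 was below the array median on all 8 arrays.

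Of the LXR targets that act on lipoproteins, Pltp, Lpl and Apoc1 rose, and Apoe and Apoc2 did not pass. Without the block Pltp kept its call, and Lpl and Apoc1 lost theirs. Pltp, the phospholipid transfer protein, ranged over 5.14 to 5.89 without and 6.50 to 7.27 with GW3965, a rise of 1.40 ± 0.21 (adjusted p 0.00973). Lpl, lipoprotein lipase, was already among the brightest probes, at 8.44 to 8.72, and reached 9.59 to 9.80 with GW3965. These groups did not overlap, and the rise was 1.07 ± 0.17 (adjusted p 0.010). Apoc1, an apolipoprotein gene beside Apoe, went from below the array median (-0.91 and -2.04 with LPS, -1.01 and -2.33 with poly(I:C)) to above it (0.19 and 0.49 with LPS and GW3965, 0.34 and 0.09 with poly(I:C) and GW3965), a rise of 1.85 ± 0.29 (adjusted p 0.010). Apoe itself was bright throughout, at 8.12 to 8.93 without and 8.42 to 9.24 with the agonist, and did not pass (0.42, interval -0.03 to 0.88, adjusted p 0.374). Apoc2, from the same cluster, did not pass either (0.45, interval -0.01 to 0.91).

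Fatty-acid synthesis held the largest rise of the whole comparison. Scd2, a stearoyl-CoA desaturase that makes monounsaturated fatty acids, was at 0.78 and 1.22 with LPS and 0.54 and 1.13 with poly(I:C), and at 4.93 and 4.48 (LPS) and 5.25 and 4.31 (poly(I:C)) when GW3965 was added. The groups were far apart: Scd2 rose 14.2-fold (3.83 ± 0.24, interval 3.30 to 4.36, adjusted p 1.0e-05). Fasn, fatty-acid synthase, was read by 2 probes, and both passed. The probe with the smaller p was at 1.84 to 2.54 without and 3.77 to 4.06 with GW3965 (1.89 ± 0.18, adjusted p 0.000228). The other was dim, with means of -2.68 without and -1.32 with GW3965, and rose by 1.35 ± 0.29 (adjusted p 0.046). This dim probe passed in 0 of 8 fits with 1 array left out, and lost its call without the block. Mid1ip1, which activates acetyl-CoA carboxylase, rose by 1.75 ± 0.16 (adjusted p 0.000228), and Acsl3, an acyl-CoA ligase, by 1.43 ± 0.21 (adjusted p 0.0080).

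These 4 were the called members among 16 measured genes of fatty-acid synthesis, while 0.379% of all probes rose. All 4 were also on the LXR list, and the median of the 16 was 0.65. The list's master regulator Srebf1 gave no clear value: 3 of the 4 arrays without GW3965 and 1 with it were at the floor, and its change of 0.94 (interval -0.18 to 2.07) did not pass. Scd1, the other desaturase, was at 0.73 to 1.42 without and 1.18 to 1.60 with GW3965 and did not pass (0.50, interval 0.03 to 0.97). Fads2, a fatty-acid desaturase, changed by 1.37 ± 0.32 and missed the threshold (adjusted p 0.0602). Cholesterol synthesis and uptake, the pathway run by the factor SREBP-2, had no call in limma among 11 measured genes, with a median of -0.21. This median was -0.0093 with quantile normalization, and 0.10 under LPS beside -0.29 under poly(I:C). The lowest of these was Fdft1 (-0.64) and the highest Nsdhl (0.68).

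Other LXR targets that rose had different levels in untreated cells. Eepd1, a protein linked to cholesterol efflux, was at 3.44 and 3.65 in untreated cells, 1.40 and 1.33 with LPS and 0.99 and 1.47 with poly(I:C). With GW3965 it was at 3.99 and 4.03 (LPS) and 3.66 and 3.94 (poly(I:C)), a rise of 2.61 ± 0.17 (6.09-fold, adjusted p 1.0e-05). Cd5l, a secreted protein that protects macrophages from apoptosis, was at 4.58 and 3.96 untreated, 3.37 to 3.96 with a stimulus and 5.65 to 6.03 with GW3965. Its 4 arrays with the agonist thus exceeded the untreated ones, and its rise was 2.18 ± 0.17 (adjusted p 5.0e-05). Tmem86a, a lysoplasmalogenase, remained below its untreated level of 4.41 and 4.31: it was at 0.97 to 1.85 with a stimulus and 2.59 to 3.22 with GW3965 (1.50 ± 0.17, adjusted p 0.00185). Ptger2, the prostaglandin E2 receptor EP2, rose by 1.47 ± 0.23 (adjusted p 0.010) and Cyb5r1, a cytochrome b5 reductase, by 1.05 ± 0.21 (adjusted p 0.0347). Cyb5r1 passed in 2 of 8 fits with 1 array left out (highest adjusted p 0.186, without LPS 1). The list members Mertk, Tgm2 and Vegfa did not pass, at -0.11, -0.14 and -0.23. Nr1h3 and Nr1h2, the genes of LXRα and LXRβ, were not among the tested probes.

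**Figure D2:**
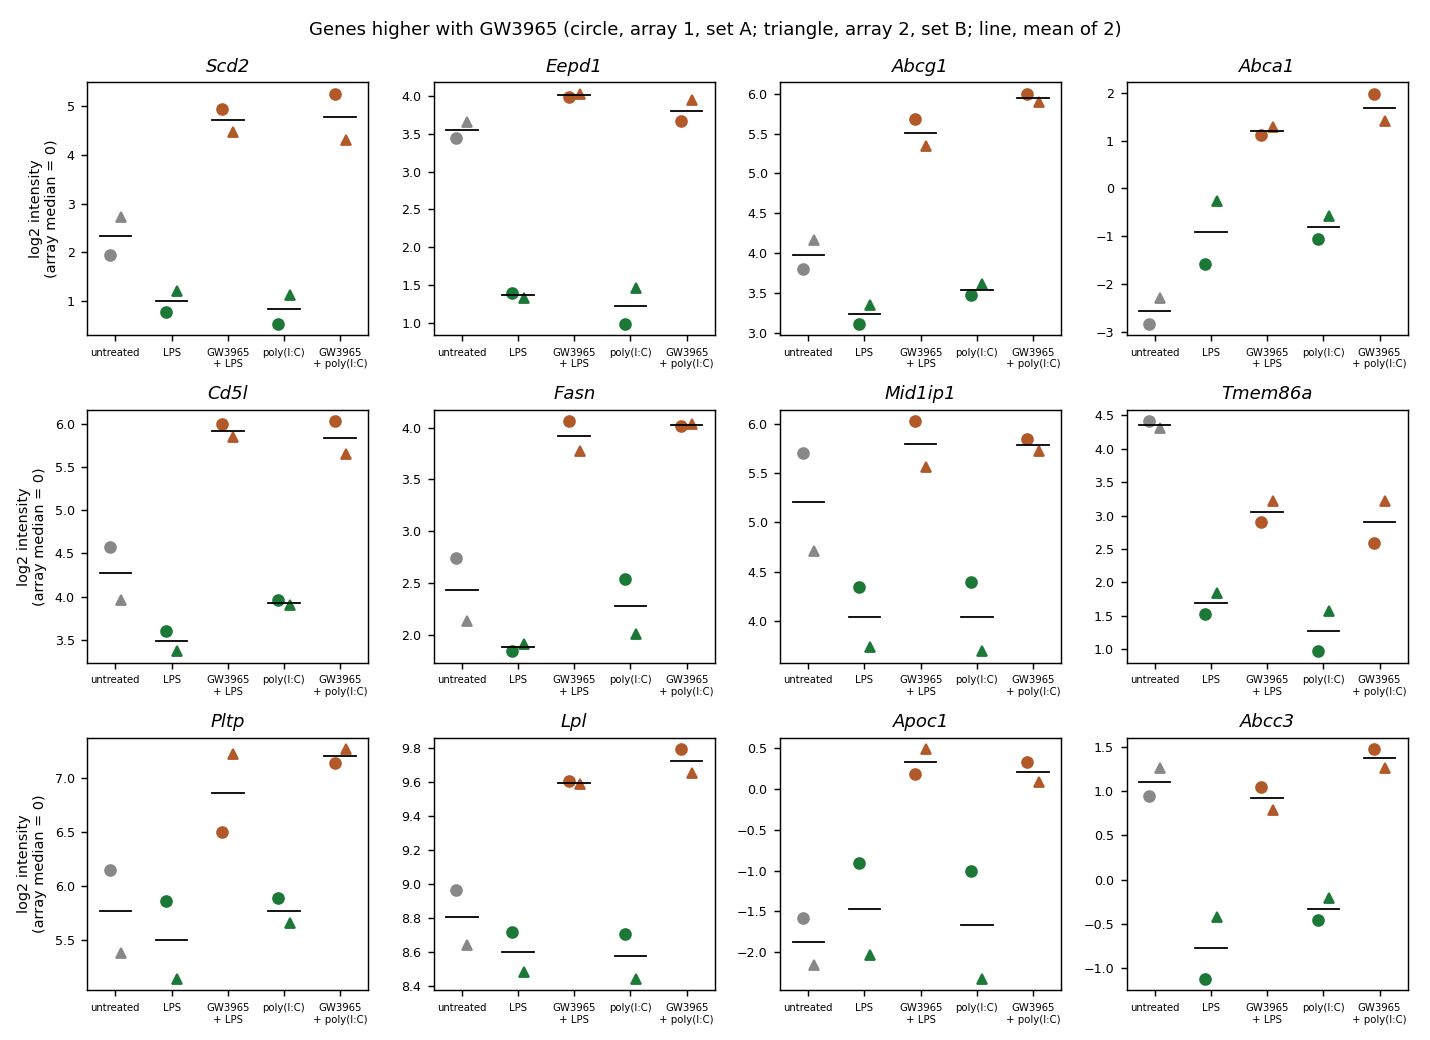
Log2 intensity (array median 0) of 12 genes called higher, in untreated, LPS and poly(I:C) arrays and in arrays with GW3965. Circles are replicate 1 (set A), triangles replicate 2 (set B), lines the mean of the 2; in all 12 panels the 4 brown points (GW3965) lie above the 4 green ones (stimulus alone), and grey points are untreated.

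Some raised genes lay outside the LXR list. Abcc3, a transporter of conjugated organic anions, was at -1.12 to -0.21 without and 0.79 to 1.48 with GW3965 (1.70 ± 0.22, adjusted p 0.00363). Ap5s1, a subunit of the AP-5 sorting complex, was at 0.35 to 0.50 without and 1.82 to 2.13 with GW3965 (1.53 ± 0.18, adjusted p 0.00213). Neither pair of ranges overlapped, and both genes passed with any 1 array left out. Myo7a, an unconventional myosin, rose by 1.42 ± 0.25 (adjusted p 0.0167). Car6, a secreted carbonic anhydrase that stayed dim (-1.39 to 0.10 with GW3965), rose by 1.69 ± 0.33 (adjusted p 0.0305), and passed in 1 of 8 fits with 1 array left out (highest adjusted p 0.14, without GW3965 + poly(I:C) 1). Asns, asparagine synthetase, was the 1 called member of 18 measured genes of the unfolded protein response (1.09 ± 0.19, adjusted p 0.0141), while 0.379% of all probes rose.

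Ch25h had the largest fall and the smallest p of the comparison. It encodes cholesterol 25-hydroxylase, which makes 25-hydroxycholesterol, itself an oxysterol. It was at -1.71 and -3.27 in untreated cells, 4.31 and 3.97 with LPS and 4.97 and 4.85 with poly(I:C). With GW3965 it was at 0.94 and 0.42 under LPS and 2.20 and 1.77 under poly(I:C), all below every array without the agonist and above both untreated arrays. The fall was 9.16-fold (-3.19 ± 0.18, interval -3.59 to -2.80, adjusted p 5.3e-06), and it was -3.46 under LPS and -2.93 under poly(I:C).

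Chemokines, the secreted proteins that recruit leukocytes, fell at 8 of 25 measured genes and rose at none, while 1.1% of all probes fell. Their median was -0.66. By pair of arrays it was -0.94 (LPS) and -1.17 (poly(I:C)) in set A, and -0.29 and -0.28 in set B. Single genes varied in this: Ccl2 changed by -1.40 in set A and -0.57 in set B, and Cxcl11 by -1.78 and -1.79. Ccl12, a monocyte attractant that signals through CCR2, was at 4.70 and 3.0 with LPS and -0.28 and 0.67 with GW3965, and at 5.43 and 3.53 with poly(I:C) and 3.07 and 2.41 with GW3965. The groups overlapped across stimuli, but each of the 4 pairs of arrays differed the same way, and the fall was 2.70 ± 0.45 on the log2 scale (adjusted p 0.0136). The other CCR2 ligands Ccl7 and Ccl2 fell by 1.25 ± 0.19 (adjusted p 0.010) and 0.99 ± 0.20 (adjusted p 0.0374). Ccl2 was among the brightest probes, at 8.84 to 9.99 with a stimulus and 8.24 to 8.53 with GW3965. Cxcl10, a T-cell attractant that signals through CXCR3, was at 9.08 and 7.82 with LPS and 5.77 and 5.85 with GW3965, and at 9.93 and 8.93 with poly(I:C) and 8.48 and 8.29 with poly(I:C) and GW3965. It fell by 1.85 ± 0.32 (adjusted p 0.0158), and the related Cxcl11 fell by 1.78 ± 0.28 (adjusted p 0.0105). Ccl24, Ccl19 and Cxcl13 fell by 1.24, 1.08 and 0.95. Ccl5, at 10.18 to 11.41 without GW3965, and Ccl3 did not pass (-0.72, adjusted p 0.123, and -0.69, adjusted p 0.164). Without the block 2 chemokines fell, and the count was 0 without LPS 1, 1 without LPS 2 or without GW3965 + poly(I:C) 1, 2 without GW3965 + LPS 1 and 4 without poly(I:C) 1.

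Interferon-stimulated genes, the antiviral program that follows type I interferon, fell at 7 of 42 measured genes and rose at none, while 1.1% of all probes fell. Their median was -0.53, and -0.29 with quantile normalization. By stimulus it was -0.78 under LPS and -0.16 under poly(I:C). The difference between stimuli was above 0 for 36 of the 42 genes, beside 3896 of all 9486 probes. This difference was not tested for the list. Isg20, an exonuclease, was at 7.40 and 6.85 with LPS and 4.74 and 4.72 with GW3965, and at 7.60 and 7.07 with poly(I:C) and 6.02 and 5.90 with poly(I:C) and GW3965. The ranges did not overlap, and Isg20 fell by 1.88 ± 0.22 (adjusted p 0.00213). Slfn4, a Schlafen family gene, was at 4.55 to 5.14 without and 1.97 to 4.17 with GW3965 and fell by 1.79 ± 0.27 (adjusted p 0.00852). Siglec1, sialoadhesin of macrophages, fell by 1.96 ± 0.36 (adjusted p 0.0229), and passed in 4 of 8 fits with 1 array left out. The sensor Zbp1 and the surface protein Ly6e fell by 0.87 (adjusted p 0.0468) and 0.94 (adjusted p 0.0471), and Cxcl10 and Cxcl11, given above, complete the 7. The antiviral genes Mx1 (-0.86, adjusted p 0.0802), Isg15 (-0.94, adjusted p 0.102), Rsad2 (-0.70, adjusted p 0.116) and Ifit1 (-0.35, adjusted p 0.497) did not pass. Without the block 3 of the 42 fell, and the count was 2 without LPS 1 or LPS 2, 3 without GW3965 + LPS 1 or GW3965 + poly(I:C) 1 and 4 without poly(I:C) 1. A list of interferon and receptor genes had 5 measured members, Ifna7, Ifnar1, Ifnar2, Ifngr1 and Tyk2, and none passed in limma. Ifna7 was the only interferon gene among them.

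Promoters were searched because chemokines and interferon-stimulated genes moved together, and such genes are known targets of factors that bind the interferon-stimulated response element (ISRE). RefSeq promoter windows of 250 bases before to 50 after the start (GRCm38.p6) were found for 74 of the 97 lowered genes and 25 of the 31 raised ones. The ISRE core, TTTCNNTTTC on either strand, occurred in 6 of the 74 (8.11%), in 0 of the 25, and in 275 of 6713 tested genes with a window (4.1%). These shares and those below count genes with a window, not windows. The LXR element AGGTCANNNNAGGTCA occurred in 0 of the 6713 tested genes, so no raised or lowered gene could hold it. Among all 27025 genes with a window it occurred in 4 (0.0148%). Single AGGTCA motifs occurred in 12.0% of the raised, 16.2% of the lowered and 16.4% of the tested genes' windows. The GAS element TTCNNNGAA, bound by STAT factors, occurred in 12.0% of the raised, 10.8% of the lowered and 7.92% of the tested genes' windows. The SREBP element TCACNCCAC occurred in 4.0%, 1.35% and 1.67%. A match is a description of letters, not of a bound site. The 6 stretches are shown, 5′ to 3′ on the gene's strand with the ISRE core in capitals, in either orientation, so that the cores can be compared: Cxcl10 (chr5:92349063-92349132, minus strand), Tm4sf1 (chr3:57302168-57302237, minus), Ccl19 (chr4:42756534-42756603, minus), Edn1 (chr13:42301368-42301437, plus), Mmp13 (chr9:7272338-7272407, plus) and Tgtp1 (chr11:48992284-48992353, minus; its probe may also read the near-identical Tgtp2).
Cxcl10: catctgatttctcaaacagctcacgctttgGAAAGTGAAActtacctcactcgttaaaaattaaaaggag
Tm4sf1: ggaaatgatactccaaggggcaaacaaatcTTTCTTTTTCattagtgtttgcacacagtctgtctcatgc
Ccl19: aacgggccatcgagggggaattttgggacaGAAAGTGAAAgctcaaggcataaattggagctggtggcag
Edn1: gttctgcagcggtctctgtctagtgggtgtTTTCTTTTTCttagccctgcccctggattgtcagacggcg
Mmp13: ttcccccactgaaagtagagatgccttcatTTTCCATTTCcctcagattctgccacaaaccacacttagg
Tgtp1: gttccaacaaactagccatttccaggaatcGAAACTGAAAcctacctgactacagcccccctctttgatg
The changes of these 6 were -1.85 for Cxcl10, -1.25 for Tm4sf1, -1.08 for Ccl19, -1.05 for Edn1, -0.91 for Mmp13 and -0.89 for Tgtp1.

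Cytokines fell at 5 of 18 measured genes and rose at none, while 1.1% of all probes fell. Their median was -0.52, and -0.29 with quantile normalization. By pair of arrays it was -0.79 (LPS) and -0.55 (poly(I:C)) in set A, and -0.21 and -0.57 in set B. Il6, interleukin 6, was among the brightest induced genes. It was at -1.66 and -2.80 in untreated cells, 9.13 and 8.17 with LPS and 9.32 and 8.50 with poly(I:C), and at 7.65 and 7.29 (LPS) and 7.70 and 7.90 (poly(I:C)) with GW3965. All 4 arrays with the agonist were below all 4 without it, and the fall was 1.14 ± 0.21 (adjusted p 0.0188). Inhba, a subunit of activin A, fell by 1.48 ± 0.28 (adjusted p 0.0241), the death ligand Tnfsf10 (TRAIL) by 1.35 ± 0.22 (adjusted p 0.0122) and Il15 by 1.11 ± 0.21 (adjusted p 0.0241). The anti-inflammatory cytokine Il10 fell too, by 1.22 ± 0.22 (adjusted p 0.0186). Tnf, tumour necrosis factor, did not pass. It was at 6.65 to 7.77 without and 6.91 to 7.24 with GW3965, and its change was -0.06 (interval -0.48 to 0.36, adjusted p 0.919). Il1b did not pass either (-0.45, interval -0.90 to 0.01, adjusted p 0.344). Without the block none of the 18 fell in limma. The count was 0 without LPS 1 or GW3965 + LPS 1, 1 without poly(I:C) 1 or GW3965 + poly(I:C) 1, and 2 without LPS 2. Il12b was not among the tested probes.

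Nos2, inducible nitric oxide synthase, fell with any 1 array left out. It was at 4.02 and 2.94 with LPS and 3.79 and 3.36 with poly(I:C), and at 1.99 and 1.57 (LPS) and 1.60 and 2.01 (poly(I:C)) with GW3965. The groups did not overlap (-1.73 ± 0.22, adjusted p 0.00295). Among 24 measured inflammatory effectors 3 fell, while 1.1% of all probes fell: Nos2, the vasoconstrictor precursor Edn1 (-1.05 ± 0.19, adjusted p 0.0225) and the collagenase Mmp13 (-0.91 ± 0.19, adjusted p 0.0388). Without the block, or without LPS 1, LPS 2, GW3965 + LPS 1 or poly(I:C) 1, the count was 1. Ptgs2, cyclooxygenase 2, did not pass (-0.87, interval -1.40 to -0.34, adjusted p 0.116). Ass1, argininosuccinate synthetase, which remakes arginine for nitric oxide synthesis, fell by 0.88 (adjusted p 0.0374). Ass1 was named after its value was seen.

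**Figure D3:**
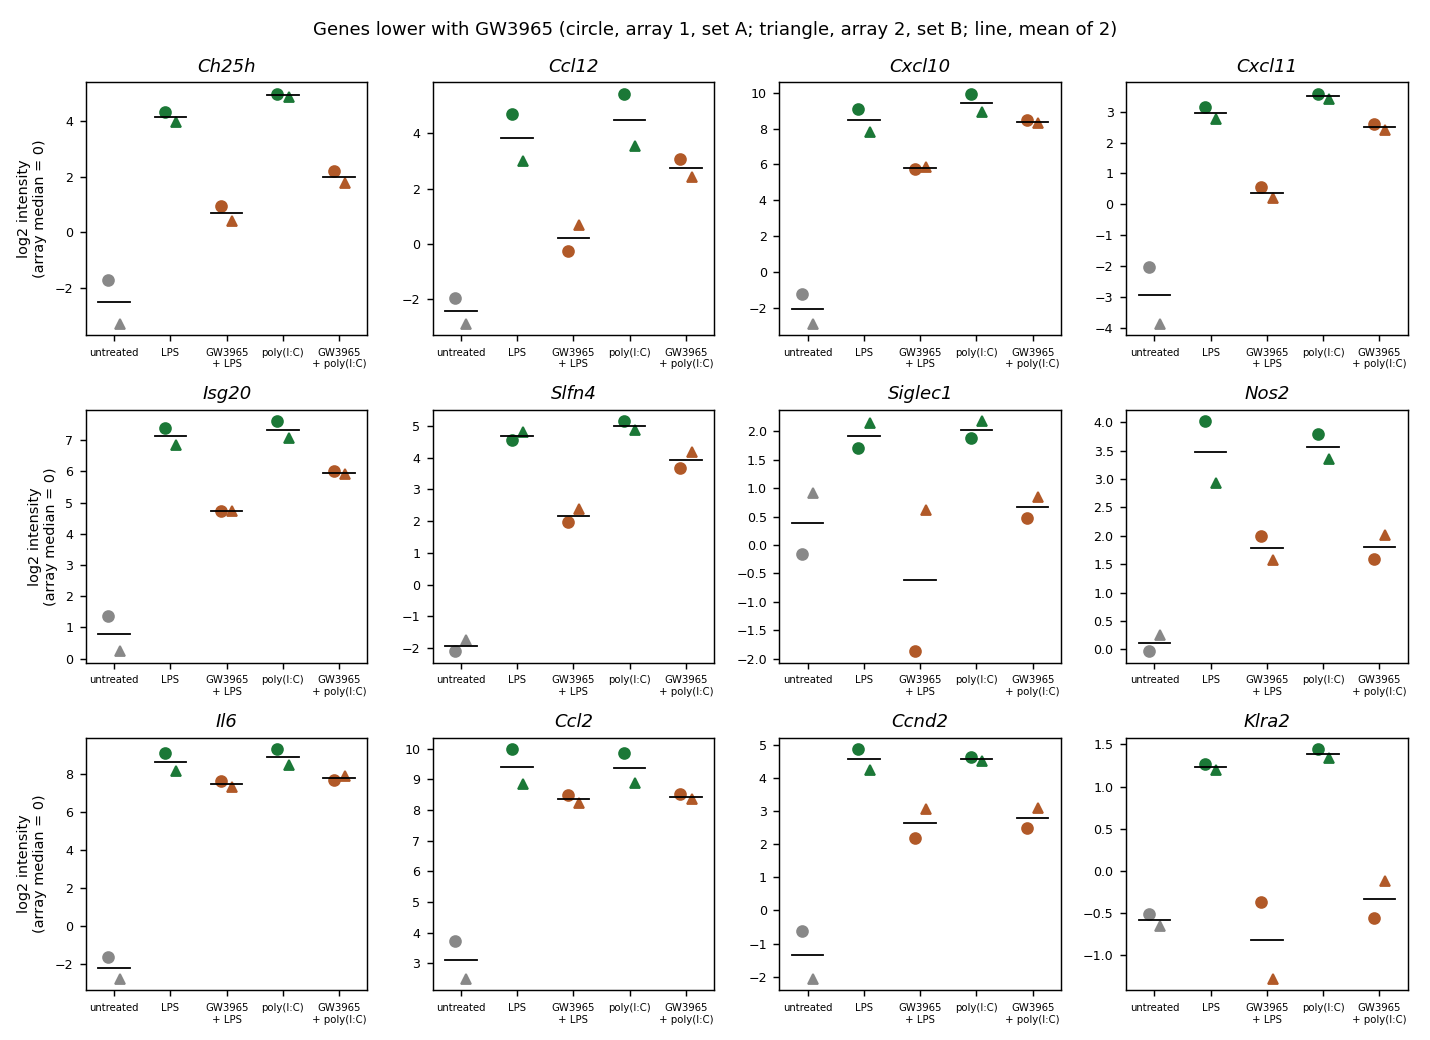
Log2 intensity (array median 0) of 12 genes called lower, in the same groups and with the same symbols as for the raised genes. For Ch25h the 4 arrays with GW3965 lie at 0.42 to 2.20 and the 4 with a stimulus alone at 3.97 to 4.97; for Ccl12 and Cxcl10 the ranges overlap across stimuli.

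Lowered genes outside these lists included Ccnd2, cyclin D2, the 1 called member of 26 measured cell-cycle genes (1.1% of all probes fell). It was at 4.23 to 4.87 without and 2.18 to 3.10 with GW3965 (-1.85 ± 0.23, adjusted p 0.00295). The list's median was -0.05 (0.01 with 75th-percentile scaling and -0.15 with quantile normalization). Klra2, a lectin-like receptor of the Ly49 family, was at 1.20 to 1.45 without and -1.28 to -0.11 with GW3965 (-1.89 ± 0.24, adjusted p 0.00295). Neither pair of ranges overlapped. The homeobox gene Lhx4 and the POU gene Pou3f1 fell by 1.74 (adjusted p 0.0141) and 1.83 (adjusted p 0.0080), the secreted protein gene Fam3b by 1.92 (adjusted p 0.010) and Dpysl3 by 1.67 (adjusted p 0.0134). Rgs5, a regulator of G-protein signalling, fell by 1.57 (adjusted p 0.046), with 1 array with GW3965 at the floor. It passed in 1 of 8 fits with 1 array left out.

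Receptors and signalling genes of the TLR pathway had 2 falls among 22, beside 1.1% of all probes: Ly86 (MD-1, a partner of a TLR4-like receptor; -1.24 ± 0.21, adjusted p 0.0146) and Tlr2 (-0.87 ± 0.17, adjusted p 0.0314). The TLR4 co-receptors Cd14 and Ly96 (MD-2) did not pass (-0.68, adjusted p 0.161, and -1.05, adjusted p 0.0933). Complement C1qa fell by 1.23 ± 0.21 (adjusted p 0.0134) and C1qc by 1.02 ± 0.22 (adjusted p 0.0468). With Siglec1 they were the 3 called of 23 scavenger and phagocytosis genes, and C1qb missed the threshold at -1.15 (adjusted p 0.0561). Antigen presentation had 1 call among 19, Psmb9 of the immunoproteasome (-0.97 ± 0.21, adjusted p 0.0471). All 19 of these genes had changes below 0, with a median of -0.60, while 54.3% of all probes were below 0. With quantile normalization 17 of 19 were below 0 (median -0.36). By pair of arrays the median was -0.89 (LPS) and -0.81 (poly(I:C)) in set A, and -0.34 and -0.56 in set B. Without the block, no gene of these 3 lists passed in limma, nor did any without LPS 1. Without LPS 2 or GW3965 + LPS 1, 1 scavenger gene and none of the other 2 lists passed; without GW3965 + poly(I:C) 1, none passed; without poly(I:C) 1, 1 TLR gene passed. Feedback genes of NF-κB had no call among 15 (median -0.19, and -0.02 with quantile normalization), glycolysis none among 17 and oxidative stress none among 18. Ncoa1, a nuclear receptor coactivator, was the 1 call among 25 nuclear receptors and coregulators (-0.79 ± 0.16, adjusted p 0.0383). Pparg itself was at 0.04 to 0.49 without and 0.83 to 1.93 with GW3965 without overlap, but missed the threshold (1.03, interval 0.49 to 1.56, adjusted p 0.0636). Of 17 measured PPARγ targets Lpl, also an LXR target, was the 1 call, while 0.379% of all probes rose. The scavenger receptor Cd36 (0.65, adjusted p 0.142) and the lipid carrier Fabp4 (-0.85, adjusted p 0.0567) did not pass.

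**Figure D4:**
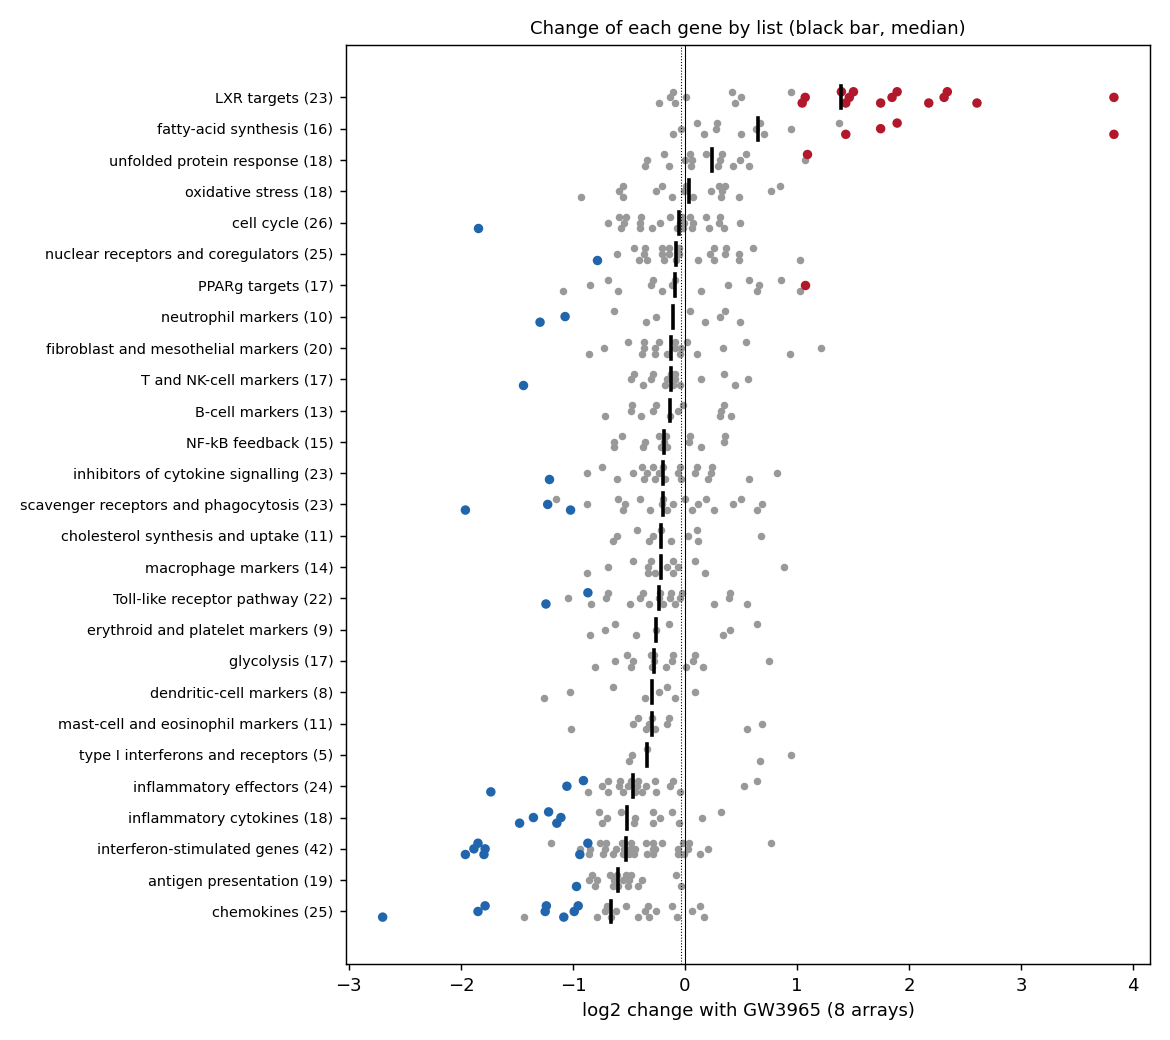
The log2 change with GW3965 of each measured gene, by list (1 row per list, number of measured genes in brackets); red and blue points were called higher and lower, black bars are list medians and the dotted line is the median of all probes, -0.04. The LXR targets have the highest median, 1.40, and the chemokines the lowest, -0.66.

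Markers of other cell types were measured beside these results. In such bulk samples, fewer cells of a type and less RNA per cell cannot be told apart. The summed linear intensity of 17 T and NK-cell markers was 17.9 to 27.9 with GW3965 and 29.1 to 63.9 without it. In untreated arrays it was 12.2 to 24.6. Of the 17, 12 were below the array median on all 8 arrays, including Cd3d, Cd3e and Cd3g. The called gene was Klrk1, the receptor NKG2D (-1.45 ± 0.21, adjusted p 0.0080), which was at -1.24 and -2.73 in untreated arrays and at 4.2 to 5.5 with a stimulus alone. Without Klrk1 the sums were 10.5 to 14.2 and 10.4 to 19.5, which overlap. The sum of 10 neutrophil markers was 22.5 to 27.2 with GW3965, 35.1 to 61.4 with a stimulus alone and 22.6 to 38.9 in untreated arrays. The called ones were S100a8 (-1.07 ± 0.22, adjusted p 0.0363) and the antimicrobial peptide Camp (-1.29 ± 0.24, adjusted p 0.0253), and without them the sums were 6.72 to 10.6 and 8.99 to 11.8. The elastase gene Elane, with Ltf, Ngp, Prtn3 and Cxcr2, was below the array median on all 8 arrays. The sum of 8 dendritic-cell markers was 36.2 to 48.2 with GW3965 and 58.1 to 104 without, with no member called. Untreated arrays had 34.9 to 64.0, a range that holds all 4 arrays with GW3965. The sum of 14 macrophage markers was 3810 to 4635 with GW3965, 4171 to 6958 with a stimulus alone and 3486 to 6439 untreated, also with no member called. Their median change was -0.21, and 0.09 with quantile normalization, so its direction depends on the scaling. B-cell, mast-cell and eosinophil, fibroblast and erythroid lists had no call. Over all probes, 1.1% were called lower. The part of these markers in the falls of inflammatory genes was not tested.

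The change was also read by how probes responded to the stimuli. Induction was read from arrays outside the comparison: at least 4-fold above the untreated array of the same set on each of the 4 arrays of LPS or poly(I:C) with GW7845. Of 197 such probes, 32 fell with GW3965 (16.2%) and none rose, against 0.769% that fell and 0.357% that rose among 9235 probes that were neither induced nor repressed. Their median change was -0.46 and 178 of the 197 were below 0 (90.4%), beside a median of -0.03 and 53.7% below 0 among the 9235. With quantile normalization the median was -0.27, and 154 were below 0. Without the block 9 of the 197 fell. The count was 7 without LPS 1, 9 without GW3965 + poly(I:C) 1, 11 without LPS 2 or GW3965 + LPS 1, and 17 without poly(I:C) 1. Of 61 probes repressed at least 4-fold, 3 rose, 1 fell and the median was 0.13. The 3 were Tmem86a, the phosphatidate phosphatase Lpin1 (1.27 ± 0.28, adjusted p 0.0484) and the arrestin Arrb1 (1.35 ± 0.29, adjusted p 0.0438). Without the block 1 of the 61 rose and 0 fell, and with 1 array left out 1 to 3 rose and 0 to 1 fell. Lpin1 passed in 1 and Arrb1 in 2 of the 8 fits with 1 array left out. Lpin1 was at 2.67 and 2.38 untreated, -2.35 to -1.33 with a stimulus and -0.71 to -0.40 with GW3965.

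The change with GW3965 was then set side by side under LPS and under poly(I:C), 2 comparisons with no array in common. Fitted on all 14 arrays, 39 of 9486 probes passed under LPS (0.411%) and 7 under poly(I:C) (0.0738%). All 9 probes that rose under LPS (0.0949%) were higher under poly(I:C) as well, with medians of 2.03 and 1.75, while 40.3% of all probes were higher under poly(I:C). All 30 that fell under LPS (0.316%) were lower under poly(I:C), with medians of -1.85 and -0.96, while 59.7% of all probes were lower. All 6 that rose under poly(I:C) (0.0633%) were higher under LPS. Over all probes, Pearson's r of the changes was 0.349 and Spearman's rho 0.348, across probes that share arrays within each comparison. Among raised genes, Scd2 changed by 3.71 and 3.95, Mid1ip1 by 1.76 and 1.74 and Abcc3 by 1.69 and 1.70.

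The test of the difference between stimuli called 0 of 9486 probes in limma, with 272 (2.87%) at an unadjusted p under 0.05. It called 14 without GW3965 + LPS 2 and 1 without poly(I:C) 2. Among the 104 lowered probes, 12 had an unadjusted interaction p under 0.05, and at 11 of them the fall was smaller under poly(I:C). None of the 36 raised probes did. Lhx4 changed by -2.54 under LPS and -0.94 under poly(I:C) (difference 1.60, interval 0.69 to 2.50, unadjusted p 0.00208). Slfn4 changed by -2.50 and -1.09 (unadjusted p 0.00361), and Cxcl10 by -2.64 and -1.05 (unadjusted p 0.0097). Each of these had an adjusted p of 0.999 for the difference, so none is shown to differ between stimuli. Nos2 changed by -1.69 and -1.77 (difference -0.08, interval -1.18 to 1.03) and Il6 by -1.18 and -1.11 (difference 0.07, interval -0.93 to 1.07).

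**Figure D5:**
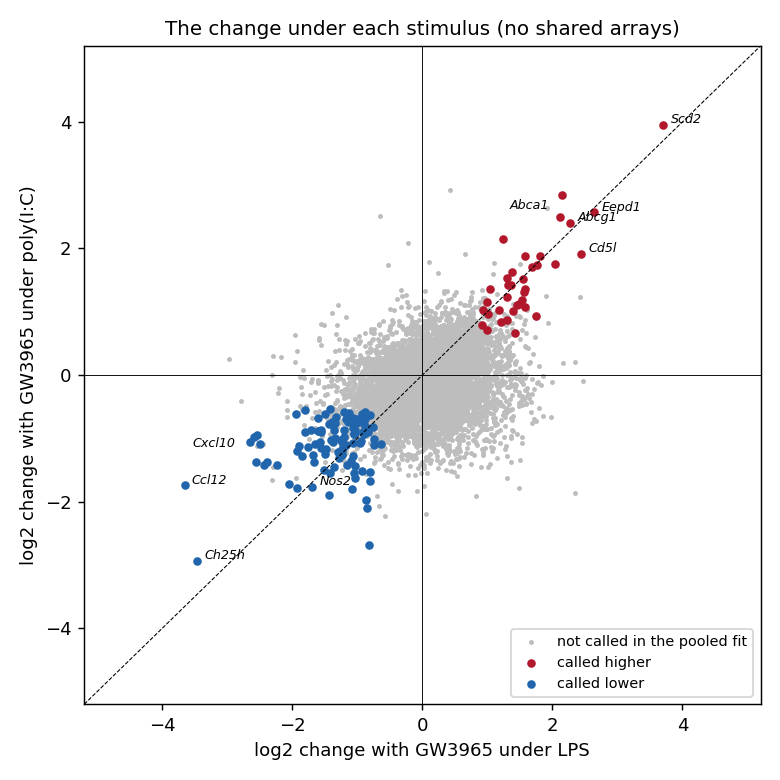
The log2 change with GW3965 under poly(I:C) (vertical axis) against that under LPS (horizontal axis), 1 point per probe, with the line of equality dashed. Red points (called higher) lie near the line, with Scd2 at 3.71 and 3.95; Ccl12 (-3.65 and -1.74) and Cxcl10 (-2.64 and -1.05) lie above it.

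GW7845, the PPARγ agonist, was compared with the same stimulus-alone arrays. These controls are shared with the GW3965 comparison, so only side-by-side values are given. With GW7845, 1 of 9502 probes passed (0.0105%), a probe without a gene symbol, and 627 had an unadjusted p under 0.05. At the 36 probes raised by GW3965 the median change with GW7845 was 0.26, beside 1.38 with GW3965. At the 104 lowered ones it was -0.56, beside -1.21. Both sets of probes were picked against these shared controls. That choice alone can shift the medians with GW7845 the same way, so they are not evidence of a shared change. Scd2 changed by 0.34, Abca1 by -0.21, Abcg1 by -0.04 and Ch25h by -0.76 with GW7845, with adjusted p of 0.928, 0.93, 0.987 and 0.795. Il6 changed by -1.25 (adjusted p 0.185), Ccl2 by -1.32 (adjusted p 0.232) and Nos2 by -1.20 (adjusted p 0.311).

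The direct test of GW3965 against GW7845, which uses no stimulus-alone array, called 28 of 9505 probes (0.295%), 12 higher (0.126%) and 16 lower (0.168%) with GW3965. Of the 36 probes raised by GW3965, 10 also passed here, and of the 104 lowered, 8. Both tests used the same arrays with GW3965, so this overlap and the list counts below are not independent evidence. Cd5l was higher than with GW7845 by 2.54 ± 0.17 (adjusted p 4.1e-05), at 5.65 to 6.03 against 3.06 to 3.66. Eepd1 was higher by 2.17 ± 0.19 (adjusted p 0.000449), Abca1 by 2.52 ± 0.31 (adjusted p 0.00621), Abcg1 by 2.38 ± 0.29 (adjusted p 0.00621) and Scd2 by 3.49 ± 0.60 (adjusted p 0.0418). Fasn, Mid1ip1, Tmem86a and Abcc3 passed as well, by 2.01, 1.87, 1.30 and 1.82. In all, 8 of 23 measured LXR targets and 3 of 16 fatty-acid synthesis genes passed this test. Of the LXR targets that GW3965 raised, Pltp, Lpl, Apoc1, Acsl3, Ptger2 and Cyb5r1 did not pass it.

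Among the lowered genes, Mcemp1, a mast-cell-expressed membrane protein, was at 2.18 to 2.74 with GW3965 and 3.44 to 4.70 with GW7845 (-1.65 ± 0.20, adjusted p 0.00621). Klra2 (-1.70, adjusted p 0.0313), S100a8 (-1.42, adjusted p 0.0269), Lhx4 (-1.32, adjusted p 0.0269), Isg20 (-1.12, adjusted p 0.047) and Cxcl10 (-1.04, adjusted p 0.047) were also lower than with GW7845. Wfdc18 and Pdpn (podoplanin) complete the 8, at -1.30 and -1.04. Ch25h missed this test (-2.43, interval -3.51 to -1.35, adjusted p 0.0928). No difference between the agonists was called for Il6 (0.10, interval -0.29 to 0.49), Ccl2 (0.33, interval -0.15 to 0.80), Ccl7 (-0.07, interval -0.58 to 0.43) or Nos2 (-0.54, interval -1.03 to -0.05), which does not show that the agonists act alike on them. The count of 28 was 14 without the block and 15 with the replicate number as block. It was 4 without GW3965 + LPS 1 or GW3965 + poly(I:C) 1, 5 without GW3965 + poly(I:C) 2, 7 without GW7845 + LPS 1, 9 without GW7845 + poly(I:C) 2, 10 without GW7845 + LPS 2, 16 without GW3965 + LPS 2 and 94 without GW7845 + poly(I:C) 1. That last array had 28 probes at least 4-fold above the other stimulated arrays of its set.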

How the data were processed

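Arrays were hybridised with biotin-labelled RNA made from 0.5 µg of total RNA, per the labels' protocols. The deposited table holds linear intensities of 10012 probes, which the authors had scaled so that each array's median was 1, within rounding. How the scaling and any background correction were done is not given in the sources used. A single gene symbol was annotated for 8983 probes.

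Intensities below the 5th percentile of positive values (0.0686, log2 -3.87) were set to it, and log2 was taken. A probe entered the tests if 2 or more of the 14 arrays exceeded their 20th percentile and all 8 arrays had a value, which left out 428 dim probes and 91 with missing values. Models were fitted with limma 3.58.1 in R 4.3.3 (empirical Bayes with an intensity trend, two-sided, Benjamini-Hochberg over all probes tested), and calls had an adjusted p under 0.05. Intervals are the fit's 95% intervals, not corrected for the number of probes. The small number of arrays, 2 per group, limits the precision. In the main comparison p-values measure the spread left after stimulus, GW3965 and array set were fitted. That fit had 4 residual degrees of freedom, and its spread was moderated across probes. The script was tested on simulated data.

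Same-numbered arrays deviated together (correlations of 0.401 to 0.666 over 6 pairs), and here the replicate number is the array set, which was a block.

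The comparison and the gene lists were chosen with earlier results of these data known. The naming rule took the 15 highest and 15 lowest called genes, all LXR list members, a fixed list of mediators and receptors, 4 members of each other list by smallest p, and called genes that were also called between the agonists (up to 10 by p). Genes outside it, such as further called list members, antiviral genes that missed the threshold, promoter genes, Lpin1 and Arrb1, were named after their values were seen. Alternatives were the block, the arrays fitted, scaling, floor, filter, missing values, moderation, array weights and leaving out each array; values within each set alone were added after seeing the data.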

Additional observations from a re-analysis of the deposited data

Results flagged for a closer look

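In 30 named genes, the log2 difference between GW3965 and the stimulus alone was examined over the 4 pairs of arrays that share a stimulus and an array set. In 2 genes, 1 pair lay far from the other 3. For values not selected beforehand, chance gives about 1 in 20. These genes were called on the same 4 pairs, so that rate cannot serve as a reference here. Siglec1 differed by -3.58 in the pair of LPS arrays of set A, further from 0 than in the other 3 pairs. Car6 differed by 0.53 in the same pair, closer to 0 than in the other 3. That pair contains GW3965 + LPS 1, the array that stood apart. The pair's part in these values was not tested beyond leaving out that array: Siglec1 then changed by -1.41 and Car6 by 2.06.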

How the results depend on the processing

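The 140 calls of GW3965 became 28 without the replicate block, 140 with the replicate number as block, 14 without the intensity trend and 27 to 201 with 1 array left out; the other 10 settings gave 99 to 156, and every one of the 140 kept its direction wherever it was tested. Called in all 21 alternatives were 13 probes. The pairing by replicate number is the array set here, so the value without the replicate block, 28, is that without pairing. The 1 call of GW7845 became 0 without the block, with the replicate number as block and without the trend, and 0 to 2 with 1 array left out. The 28 calls between the agonists became 14 without the block, 15 with the replicate block, 44 with all 14 arrays, 4 without the trend, 97 with array weights and 4 to 94 with 1 array left out. The interaction, with 0 calls, gave 0 to 14 with 1 array left out and 0 otherwise. Changes near 0 turned sign: Ctss was 0.15 and Tnf 0.25 with quantile normalization, Tnf was 0.0024 with 75th-percentile scaling, and with array weights Tgm2 was 0.044 and Abcg8 -0.031. With 1 array left out, Abcg5 ranged from -0.23 to 0.080, Abcg8 ranged from -0.10 to 0.19, Mertk ranged from -0.48 to 0.28, Tgm2 ranged from -0.31 to 0.063 and Tnf ranged from -0.18 to 0.13. Of the other values of named genes, 329 lost and 33 gained a call, all in the same direction; the cause was not tested. No detection calls were used, so the level over background is unknown.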

Other observations

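Further genes called in the comparison of GW3965 with the stimulus alone were not described above, and they were chosen after their values were seen. Idh1, the cytosolic isocitrate dehydrogenase that supplies NADPH, was at 3.97 and 4.07 in untreated cells, 1.24 to 1.54 with a stimulus and 1.77 to 3.24 with GW3965, a rise of 1.30 ± 0.22 (limma, adjusted p 0.0154). The sphingomyelin synthase Sgms2 rose by 1.02 (adjusted p 0.0269), and the lipid-droplet protein Plin3 by 1.33 (adjusted p 0.0308). Tsc22d3 (GILZ), a gene known for its induction by glucocorticoids, rose by 0.98 ± 0.17 (adjusted p 0.0154) and changed by 1.21 with GW7845 (adjusted p 0.762).

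Among the lowered genes were several transcription factors. Batf, an AP-1 family factor, was at 5.30 to 6.62 without and 4.60 to 4.80 with GW3965 (-1.16 ± 0.22, adjusted p 0.0229), and Foxp1 at 2.88 to 3.53 without and 1.35 to 2.43 with it (-1.13, adjusted p 0.034). Klf4 fell by 1.24 (adjusted p 0.0122), and Hif1a, the oxygen-regulated factor, by 0.94 (adjusted p 0.0471). Stat3 was read by 2 probes that disagreed: 1 changed by -1.17 (adjusted p 0.0188) and the other by -0.02 (adjusted p 0.97). Kdr, the receptor VEGFR2, named above for passing with any 1 array left out, was at 2.06 and 1.78 untreated, 2.68 to 2.93 with a stimulus and 0.76 to 2.03 with GW3965 (-1.51 ± 0.21, adjusted p 0.00503). Pla2g2d, a secreted phospholipase A2, fell by 1.52 ± 0.21 (adjusted p 0.00596). The multidrug transporter Abcb1a fell by 1.56 (adjusted p 0.0108), the iron hormone hepcidin (Hamp) by 1.51 (adjusted p 0.0228), Cdkn1c (p57) by 1.38 (adjusted p 0.011) and neuropeptide Y (Npy) by 1.48 (adjusted p 0.0314).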
